A study of Homo sapiens with 27 samples.

Results

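The 36 genes described here carry out the division of the cell. They were taken by symbol from the array's named genes: 18 act in DNA replication and entry into S phase, 17 act in mitosis, and CCND1 encodes cyclin D1, the G1 cyclin that activates CDK4 and CDK6. All 36 were measured, out of 17687 named genes. LIM1215, SW48 and Caco2 are established lines from human colorectal cancers, and their total RNA (250 ng per sample) was labelled with biotin and hybridised to 27 whole-transcript arrays. Each line was grown from a single clone, was sampled in 3 states and gave 3 arrays per state. Parental cells were the original line without the challenge. Resistant cells were what remained after 20 cycles in which 1000000 seeded tumour cells in a 10 cm dish received, a day later, 1000000 NK-CD16 cells and 1 ug/ml cetuximab, an antibody against EGFR. Withdrawal cells were resistant cells kept for 20 more cycles without either. All values below are log2 intensities as deposited, on which a difference of 1 is a factor of 2. Levels were compared only within a line, and the changes between states were also compared between lines. Nothing in the labels says that the 3 replicates came from separate cultures, so the p-values measure only the spread between these samples.

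Replication starts when CDC6 and CDT1 load the ring of MCM2 to MCM7 onto DNA in G1. CDC45 and the GINS proteins then turn that ring into a moving helicase, PCNA clamps the polymerases to DNA, and RRM1, RRM2 and TYMS supply the building blocks. E2F1 switches these genes on late in G1, among them the genes for the E cyclins CCNE1 and CCNE2, which activate CDK2. The mitosis genes peak later, in G2 and M, and are driven by other regulators, FOXM1 among them, which act through promoter elements called CHR (cell cycle homology region) and CCAAT boxes. Colorectal cancer lines in culture usually divide without pause and express both groups.

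The promoters of the replication and the mitosis members differ in the elements that they hold. The elements searched follow from the regulators named above for these genes, so the split is not independent of the choice of members. RefSeq promoter entries (GRCh38.p14, 250 bases before to 50 bases after the start) were at hand for 28 members, 15 of the replication genes and 13 of the mitosis genes. An E2F element, read as TTTGGCGC, TTTCGCGC, TTTCCCGC or TTTGCCGC on either strand, was found in 11 of 15 replication promoters (73.3%) and in 2 of 13 mitosis promoters (15.4%), those of CDK1 and CENPA. Of all 27305 promoters, 3.33% held one, and of 46 promoters of further replication genes 14 did (30.4%), a smaller share than among the members. The CHR, read as TTTGAA on either strand, showed the opposite split, with 1 of 15 replication promoters (6.67%, RRM1) and 9 of 13 mitosis promoters (69.2%), against 15.4% of all promoters and 41 of 64 promoters of further mitosis genes (64.1%). CCAAT, the box bound by NF-Y, was frequent in both groups, at 11 of 15 (73.3%) and 12 of 13 (92.3%), against 35.7% of all promoters. The spellings of the E2F element overlap each other when read on both strands, so a site can match more than once. A match describes the letters only and was not tested as a binding site. No E2F spelling occurred in the windows of CDC45, RRM1, RRM2 and CCNE1.

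**Figure D1:**
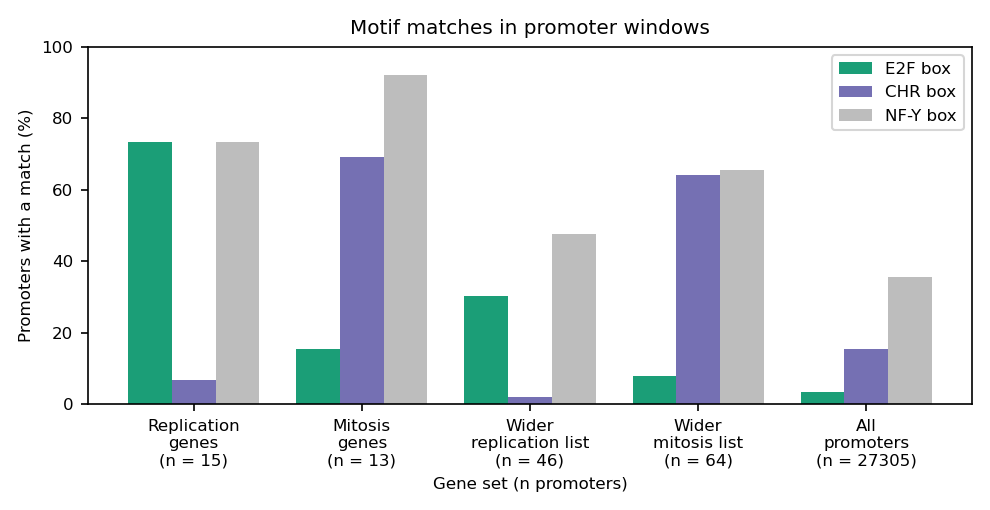
Share of promoters (percent, vertical axis) that hold an E2F element, a CHR or a CCAAT box bound by NF-Y, for the replication members, the mitosis members, the wider replication and mitosis lists and all promoters of the RefSeq table. The E2F bar is 73.3% for the replication members and 15.4% for the mitosis members, and the CHR bar is 6.67% for the replication members and 69.2% for the mitosis members.

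The promoters of 3 replication genes that fell in LIM1215 Withdrawal cells (MCM6, GINS2 and E2F1) and of 3 mitosis genes are shown because they carry this split: MKI67 and CENPF fell in the same cells, and CCNB2 fell in Resistant cells of SW48 and Caco2. Each is written 5′ to 3′ along the gene's own strand. MCM6 lies at chr2:135876394-135876693 on the minus strand, GINS2 at chr16:85688905-85689204 on the minus strand and E2F1 at chr20:33686336-33686635 on the minus strand. MKI67 lies at chr10:128126374-128126673 on the minus strand, CENPF at chr1:214602945-214603244 on the plus strand and CCNB2 at chr15:59104896-59105195 on the plus strand. Capitals mark the E2F element in the replication promoters and the CHR in the mitosis promoters. In MCM6, 4 matches overlap in a pair of blocks, and E2F1 and MKI67 hold 2 matches each.
MCM6: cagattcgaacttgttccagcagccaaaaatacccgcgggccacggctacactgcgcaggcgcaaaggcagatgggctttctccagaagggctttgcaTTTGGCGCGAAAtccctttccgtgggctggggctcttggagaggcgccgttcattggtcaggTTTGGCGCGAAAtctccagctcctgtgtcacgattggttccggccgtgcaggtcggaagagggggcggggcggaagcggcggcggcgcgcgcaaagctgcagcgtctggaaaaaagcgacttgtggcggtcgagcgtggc
GINS2: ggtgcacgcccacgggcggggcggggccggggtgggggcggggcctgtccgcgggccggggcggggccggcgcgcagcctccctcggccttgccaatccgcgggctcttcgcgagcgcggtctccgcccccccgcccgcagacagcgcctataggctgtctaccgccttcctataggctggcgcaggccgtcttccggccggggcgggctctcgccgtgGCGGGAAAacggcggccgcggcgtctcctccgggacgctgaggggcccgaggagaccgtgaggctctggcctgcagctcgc
E2F1: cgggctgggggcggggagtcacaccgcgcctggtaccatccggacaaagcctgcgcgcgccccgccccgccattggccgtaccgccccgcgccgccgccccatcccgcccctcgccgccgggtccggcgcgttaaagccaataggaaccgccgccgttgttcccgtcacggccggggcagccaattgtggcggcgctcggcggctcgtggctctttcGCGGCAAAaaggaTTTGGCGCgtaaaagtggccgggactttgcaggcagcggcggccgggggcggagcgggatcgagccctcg
MKI67: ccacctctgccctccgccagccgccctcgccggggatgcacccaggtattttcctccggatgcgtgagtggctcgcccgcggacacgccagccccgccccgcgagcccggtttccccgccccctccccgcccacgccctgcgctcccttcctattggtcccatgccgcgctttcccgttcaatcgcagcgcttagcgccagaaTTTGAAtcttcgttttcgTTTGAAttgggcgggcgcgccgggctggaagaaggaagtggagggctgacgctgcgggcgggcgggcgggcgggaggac
CENPF: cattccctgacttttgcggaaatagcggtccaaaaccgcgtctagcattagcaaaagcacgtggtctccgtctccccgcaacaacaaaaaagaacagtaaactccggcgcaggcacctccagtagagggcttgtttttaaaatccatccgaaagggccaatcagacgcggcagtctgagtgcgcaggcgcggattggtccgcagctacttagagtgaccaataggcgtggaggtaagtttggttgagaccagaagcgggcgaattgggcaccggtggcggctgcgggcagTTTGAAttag
CCNB2: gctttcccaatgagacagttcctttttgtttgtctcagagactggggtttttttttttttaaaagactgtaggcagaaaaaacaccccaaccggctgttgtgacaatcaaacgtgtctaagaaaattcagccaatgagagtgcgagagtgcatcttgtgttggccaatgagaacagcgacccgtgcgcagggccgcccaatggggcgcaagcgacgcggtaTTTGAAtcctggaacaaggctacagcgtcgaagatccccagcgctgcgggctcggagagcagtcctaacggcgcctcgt

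Some properties of the arrays touch the results. All 324 means of a member in a group lay above the 95th percentile of the 612 negative control probe sets, so no member was at background anywhere. Colorectal epithelial markers were above that background for 9 of 9 genes in LIM1215, 8 of 9 in Caco2 (not CDX1) and 6 of 9 in SW48 (not CDX1, CDH17 and VIL1). Parental replicate 3 of LIM1215 stood apart, with correlations of 0.98709 and 0.98721 to the other Parental arrays, against 0.99682 between those and 0.99465 to 0.99646 over all pairs in the other 8 groups. It lay below both other Parental arrays in 34 of 36 members (17 of 18 replication and 17 of 17 mitosis genes), against 42.3% of all genes. The counts and averages for LIM1215 are therefore given with and without it, and since the model pools the spread of all arrays, the counts of the other lines are given without it too.

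Lymphocyte transcripts were higher on the Resistant arrays. The mean of 21 NK cell and lymphocyte markers was 7.81 to 8.20 on LIM1215 Resistant arrays against 4.16 to 4.49 on Parental arrays, 4.94 to 5.30 against 3.10 to 3.23 in SW48, and 7.0 to 7.32 against 3.82 to 3.97 in Caco2. In these comparisons 19, 14 and 19 of the 21 markers rose, with 12, 5 and 10 above background in Resistant cells and 1 in Parental cells of each line. Withdrawal arrays had means of 4.32 to 4.42 in LIM1215, 3.19 to 3.34 in SW48 and 3.77 to 3.90 in Caco2, again with 1 marker above background each. The mean of 7 B cell and myeloid markers was 6.76 to 6.81 on Caco2 Resistant arrays against 5.67 to 6.06 on Parental arrays, with LYZ, the lysozyme gene, 4.53 higher, and no B cell marker was above background. Dividing lymphocytes also express the members, and the part of added cells in any comparison that involves Resistant cells was not tested. In bulk RNA, fewer cells of a type and less RNA per cell cannot be told apart.

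Between Withdrawal and Resistant cells of LIM1215, 22 of the 36 genes were called. Among the replication genes 13 of 18 fell (72.2%) and 1 rose, against 14.4% of all genes that fell and 13.6% that rose at the same threshold, an adjusted p under 0.05 in limma over all 17687 genes. Of the mitosis genes, 8 of 17 fell (47.1%) and none rose. The median change was −1.02 for the replication genes and −0.35 for the mitosis genes, against 0.03 for all genes. The 3 Withdrawal arrays lay wholly below the 3 Resistant arrays in 29 of the 36 genes, against 23% of all genes, and wholly above in 2.

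The E cyclins changed most in this comparison. CCNE2 lay at 7.89, 8.12 and 7.65 on the Withdrawal arrays, against 10.35, 10.31 and 10.26 on the Resistant arrays, a change of −2.42 ± 0.39 (SE, n = 3 arrays per group) or 5.36-fold lower (adjusted p = 4.24e-05). CCNE1 lay at 8.52, 8.53 and 8.74 on the Withdrawal arrays, against 10.58, 10.67 and 10.70 on the Resistant arrays, 4.14-fold lower (−2.05 ± 0.26, adjusted p = 2.91e-06). In both genes every Withdrawal array lay far under the lowest Resistant array. The GINS subunits followed. GINS2 read 8.98, 9.10 and 8.80 in Withdrawal cells, against 10.53, 10.74 and 10.77 in Resistant cells (−1.73 ± 0.31, 3.31-fold, adjusted p = 0.000155). GINS1 read 11.74, 11.81 and 11.73 in Withdrawal cells, against 13.46, 13.20 and 13.35 in Resistant cells (−1.58 ± 0.23, 2.99-fold, adjusted p = 1.54e-05). The groups do not overlap in either subunit.

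The helicase ring fell as a whole, though by unequal amounts. MCM6 was at 11.08, 11.18 and 11.01 on Withdrawal arrays, against 12.48, 12.22 and 12.49 on Resistant arrays (−1.31 ± 0.27, 2.47-fold, adjusted p = 0.000652). MCM3 was at 12.04, 12.08 and 12.14 on Withdrawal arrays, against 13.24, 13.23 and 13.28 on Resistant arrays (−1.17 ± 0.15, 2.24-fold, adjusted p = 2.06e-06). MCM2 was at 11.41, 11.37 and 11.50 on Withdrawal arrays, against 12.60, 12.49 and 12.59 on Resistant arrays (−1.13 ± 0.16, 2.19-fold, adjusted p = 6.84e-06). The remaining ring genes also fell, MCM4 by 1.08, MCM7 by 0.63 and MCM5 by 0.53, the last with an adjusted p of 0.0287 that was lost on leaving out any Resistant or Withdrawal array in turn (up to 0.0858). E2F1, the transcription factor upstream of the ring, read 8.85, 8.0 and 8.40 in Withdrawal cells, against 9.60, 9.63 and 9.79 in Resistant cells (−1.26 ± 0.22, 2.39-fold, adjusted p = 9.83e-05). PCNA, the clamp, read 13.48, 13.66 and 13.62 in Withdrawal cells, against 14.55, 14.49 and 14.58 in Resistant cells (−0.96 ± 0.14, 1.94-fold, adjusted p = 1.72e-05), and TYMS fell by 0.68.

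Not every step of replication took part. CDC6, a loader of the ring, rose, with 13.51, 13.58 and 13.53 on Withdrawal arrays against 12.98, 13.15 and 13.26 on Resistant arrays (0.41 ± 0.15, 1.33-fold, adjusted p = 0.0477). That call was lost without Resistant replicate 1 (adjusted p = 0.172), Resistant replicate 2 (0.089) or any of the Withdrawal arrays (0.0827 to 0.116). The second loader CDT1 differed by −0.03, CDC45 by 0.18, and the ribonucleotide reductase subunits RRM1 and RRM2 by −0.20 and −0.23, none of which passed the test. CCND1 differed by −0.11 (adjusted p = 0.412), with 15.15, 15.17 and 15.26 on Withdrawal arrays against 15.30, 15.36 and 15.27 on Resistant arrays.

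Among the mitosis genes of the same comparison, CCNB1, the cyclin that activates CDK1, lay at 12.96, 12.97 and 12.89 on Withdrawal arrays, against 13.99, 14.03 and 13.93 on Resistant arrays (−1.05 ± 0.21, 2.07-fold, adjusted p = 0.000633). MKI67, the proliferation marker Ki-67, lay at 12.22, 12.29 and 12.35 on Withdrawal arrays, against 13.89, 13.22 and 12.79 on Resistant arrays (−1.01 ± 0.21, 2.02-fold, adjusted p = 0.000723). The Resistant arrays of MKI67 were spread over more than 1 log2 unit, and all 3 stayed above the Withdrawal arrays. FOXM1, a transcription factor of the G2 and M genes, fell by 0.67, with 12.45, 12.60 and 12.60 in Withdrawal cells against 13.39, 13.20 and 13.08 in Resistant cells (adjusted p = 0.00238). The kinetochore gene CENPF fell by 0.97, the spindle checkpoint genes BUB1B and BUB1 by 0.76 and 0.49, BIRC5 of the chromosomal passenger complex by 0.60, and CDC20, the activator of the anaphase-promoting complex, by 0.51. The BIRC5 call was lost on leaving out any array of either group (adjusted p 0.055 to 0.114), and that of BUB1 was lost without Resistant replicate 1 (0.0699) or Withdrawal replicate 1 (0.0807). The other 9 mitosis genes had changes of −0.35 (TTK, adjusted p = 0.0574) to −0.04. CDK1 itself was at 13.07, 13.16 and 13.20 on Withdrawal arrays and at 13.15, 13.10 and 13.29 on Resistant arrays, and TOP2A at 14.43, 14.35 and 14.37 on Withdrawal arrays and at 14.49, 14.49 and 14.41 on Resistant arrays. The 95% interval of the change was −0.31 to 0.23 for CDK1 and −0.30 to 0.13 for TOP2A. Without Parental replicate 3 in the shared spread, 15 replication genes (CDC6 higher, the others lower) and 10 mitosis genes (all lower) were called, where 31.2% of all genes were. RRM2, PLK1 and TTK were added, all lower.

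**Figure D2:**
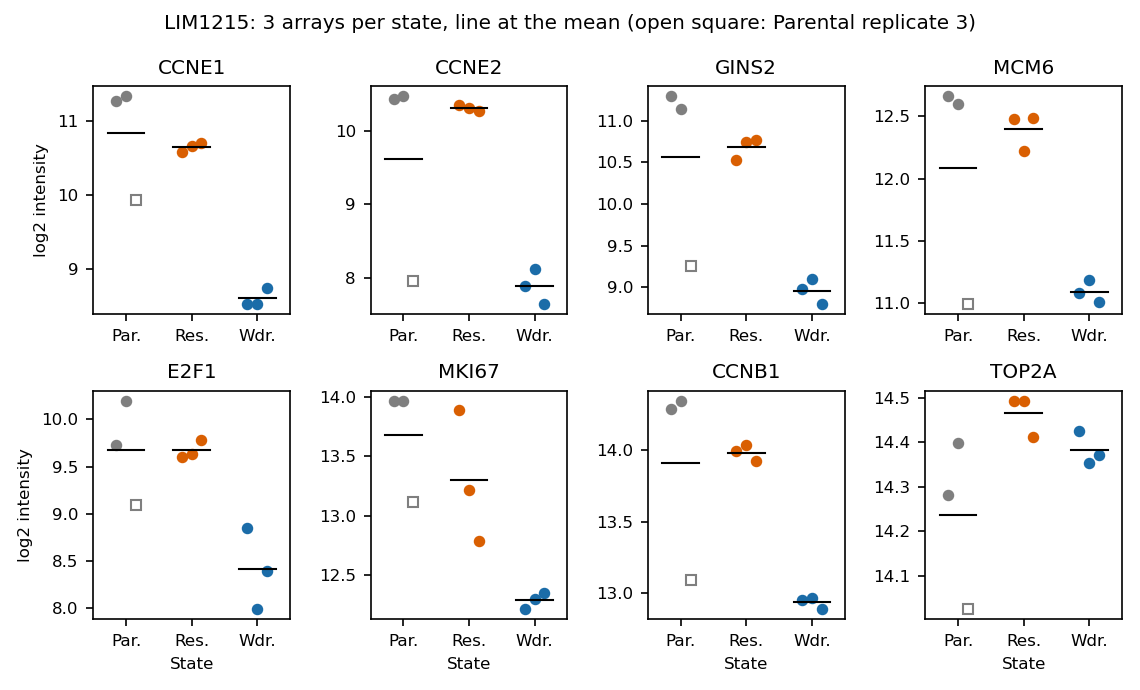
Log2 intensity (vertical axis) of CCNE1, CCNE2, GINS2, MCM6, E2F1, MKI67, CCNB1 and TOP2A on each LIM1215 array, with the states in the order in which they were reached along the horizontal axis, a bar at the mean of 3 arrays and an open square for Parental replicate 3. The Withdrawal arrays lie lowest in CCNE1, GINS2, E2F1, MKI67 and CCNB1, Parental replicate 3 lies near them in CCNE2 and MCM6, and TOP2A stays between 14.03 and 14.49.

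Against Parental cells, the LIM1215 Withdrawal cells were lower in 13 of 18 replication genes and 7 of 17 mitosis genes, with none higher, where 11.2% of all genes fell and 9.89% rose. The medians were −0.72 and −0.33, against 0.00 for all genes. Both comparisons use the same Withdrawal arrays, so they are not independent of each other. In this one the lymphocyte markers were level: 1 of 21 was called, and the list's mean was 4.32 to 4.42 on Withdrawal arrays against 4.16 to 4.49 on Parental arrays. All 3 Withdrawal arrays were under all 3 Parental arrays in 13 genes, where 15.8% of all genes showed this.

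CCNE1 had 11.27, 11.34 and 9.93 on the Parental arrays, so its Withdrawal level given above was 4.75-fold lower (−2.25 ± 0.26, adjusted p = 4.2e-06). E2F1 had 9.73, 10.19 and 9.10 on the Parental arrays (−1.26 ± 0.22, 2.39-fold lower in Withdrawal cells, adjusted p = 0.000226). MKI67 had 13.96, 13.96 and 13.11 on the Parental arrays (−1.39 ± 0.21, 2.63-fold lower in Withdrawal cells, adjusted p = 5.8e-05). In these 3 genes even the low Parental replicate 3 was above every Withdrawal array. The same held for GINS2, with 11.29, 11.14 and 9.25 on the Parental arrays (−1.60 ± 0.31, adjusted p = 0.000667), and for GINS1, with 13.43, 13.46 and 12.04 (−1.22 ± 0.23, adjusted p = 0.000605). MCM2 with 12.67, 12.72 and 11.85 (−0.99 ± 0.16), MCM3 with 13.15, 13.15 and 12.39 (−0.81 ± 0.15) and CCNB1 with 14.29, 14.34 and 13.09 (−0.97 ± 0.21) on the Parental arrays also lay above all Withdrawal arrays.

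CCNE2 and MCM6 did not separate. CCNE2 had 10.43, 10.47 and 7.96 on the Parental arrays (−1.74 ± 0.39 in Withdrawal cells, adjusted p = 0.00236), and MCM6 had 12.66, 12.60 and 10.99 (−0.99 ± 0.27, adjusted p = 0.00979). Replicate 3 lay within or under the range of the Withdrawal arrays in both. The pooled errors do not reflect the wide spread of the Parental arrays. Their standard deviation was 1.44 for CCNE2, 0.95 for MCM6 and 1.14 for GINS2, against 0.24, 0.09 and 0.15 on the Withdrawal arrays. PCNA, with 14.52, 14.44 and 13.84 on the Parental arrays, fell by 0.68 (adjusted p = 0.00133). MCM4 fell by 0.75, MCM7 by 0.54, MCM5 by 0.51 and TYMS by 0.43 among the replication genes, and CDC20 by 0.74, BUB1B by 0.68, CENPF by 0.65, FOXM1 by 0.63 and PLK1, a mitotic kinase, by 0.33. The genes that did not pass the test ranged from −0.33 (RRM2) to 0.03 (CDT1) in replication and from −0.40 (BUB1) to 0.15 (TOP2A) in mitosis. CCND1 was at 15.37, 15.40 and 15.40 on the Parental arrays (−0.20 in Withdrawal cells, adjusted p = 0.15).

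How far these genes fell depended on Parental replicate 3. Without it, 15 replication and 15 mitosis genes were called lower, where 15.1% of all genes were, and the medians became −0.94 and −0.59. CCNE1 then stood at −2.71, CCNE2 at −2.56, GINS2 at −2.26 and MKI67 at −1.68. Set against replicate 3 alone, all Withdrawal arrays were lower in 13 of the 36 genes, higher in 14 and on both sides of it in 9. That array thus lay outside the range of the Withdrawal arrays in most of these genes, above it in some and below it in others. Leaving out Parental replicate 1 or replicate 2 instead left 13 called genes each, where 13% and 12.8% of all genes were called. A fit to the LIM1215 arrays alone left 9, where 2227 of all 17687 genes were called. That fit lost the calls of GINS2 (adjusted p = 0.0522), CCNB1 (0.0611), BUB1B (0.0745) and CCNE2 (0.0803). It also lost those of MCM5, MCM6, MCM7, TYMS, PLK1, CENPF and FOXM1. Of the calls above, those of MCM5, MCM6, MCM7, TYMS, PLK1, CENPF and FOXM1 were lost without Parental replicate 1 (adjusted p 0.0652 to 0.258) and without replicate 2 (0.0585 to 0.276). Those of MCM5, TYMS and PLK1 were lost also on leaving out any of the Withdrawal arrays (0.0684 to 0.122), and CENPF without Withdrawal replicate 1 (0.076).

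Between Resistant and Parental cells of LIM1215, no member passed the limma test, where 5.42% of all genes rose and 5.39% fell, and 4 of 36 had an unadjusted p under 0.05. The medians were 0.11 for replication and 0.03 for mitosis, against −0.03 for all genes, and single changes ran from −0.42 (CDC6) to 0.69 (CCNE2). The groups did not overlap in 4 genes, 3 higher and 1 lower in Resistant cells, where 10.9% and 12.7% of all genes did so. FOXM1 was at 13.39, 13.20 and 13.08 in Resistant cells and at 13.50, 13.44 and 12.59 in Parental cells. CDK1 was at 13.15, 13.10 and 13.29 in Resistant cells and at 13.36, 13.44 and 12.75 in Parental cells. TOP2A was at 14.49, 14.49 and 14.41 in Resistant cells and at 14.28, 14.40 and 14.03 in Parental cells. In each of the 3 genes Parental replicate 3 was the lowest array.

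Without Parental replicate 3, 8 members were lower and none higher in Resistant cells, where 7.37% of all genes were lower and 7.35% higher. They were CDC6 (−0.65), CCNE1 (−0.65), GINS2 (−0.53), CDC45 (−0.45) and RRM2 (−0.35) of replication, and MKI67 (−0.66), AURKA (−0.50), a spindle pole kinase, and CDC20 (−0.46) of mitosis. The medians turned to −0.14 and −0.24. The direction of the LIM1215 Resistant median thus rested on 1 Parental array for the replication genes. The mitosis median of 0.03 also turned under median centring (−0.015) and without LIM1215 Resistant replicate 3 (−0.012).

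In SW48, replication and mitosis genes were called mostly in different directions between Resistant and Parental cells: 6 of 18 replication genes rose and none fell, while 5 of 17 mitosis genes fell and 1 rose. Of all genes, 10.9% rose and 11.8% fell. The medians were 0.23 for replication and −0.05 for mitosis (0.01 after median centring), against 0.00 for all genes. Groups did not overlap in 12 members that were higher and 13 that were lower in Resistant cells, where 17.2% and 18.3% of all genes did so. Of the 18 replication genes, 8 were higher and 6 lower by this measure, so they separated in both directions. Of the 17 mitosis genes, 3 were higher and 7 lower.

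CCNE1 lay at 9.47, 9.83 and 9.45 on the Resistant arrays, against 8.35, 8.46 and 8.48 on the Parental arrays (1.16 ± 0.26, 2.23-fold higher, adjusted p = 0.00217). CDC45, which joins the active helicase, lay at 11.57, 11.72 and 11.47 on the Resistant arrays, against 10.56, 10.89 and 10.67 on the Parental arrays (0.88 ± 0.15, 1.84-fold, adjusted p = 0.0001). TYMS, thymidylate synthase, lay at 12.23, 12.32 and 12.21 on the Resistant arrays, against 11.62, 11.49 and 11.58 on the Parental arrays (0.69 ± 0.15, 1.61-fold, adjusted p = 0.00144). No array of one state reached into the range of the other. PCNA was at 13.56, 13.33 and 13.45 in Resistant cells, against 12.89, 12.93 and 12.81 in Parental cells (0.57 ± 0.14, adjusted p = 0.00405). RRM1 rose by 0.48 (adjusted p = 0.00318) and RRM2 by 0.41 (adjusted p = 0.0355), and the RRM2 call was lost on leaving out Parental replicate 2 or 3 or any Resistant array (0.057 to 0.102). The genes that rose thus supply nucleotides, clamp the polymerase, activate the helicase and activate CDK2, and no ring gene was among them.

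The ring and its loader pointed the other way without passing the test. MCM2 was at 10.81, 10.62 and 10.86 on Resistant arrays and at 11.11, 11.05 and 11.04 on Parental arrays (−0.30, adjusted p = 0.196), MCM6 differed by −0.54, MCM3 by −0.35 and CDC6 by −0.37. Without LIM1215 Parental replicate 3 in the shared spread, these 4 were called lower (adjusted p 0.00343 to 0.0242), GINS1 and CCNE2 were called higher (0.62 and 0.68), CCNB1 and CENPA lower, and the count for SW48 was 21 members, where 25.7% of all genes were called. CCNE2 read 9.48, 9.60 and 9.44 in Resistant cells and 8.88, 8.87 and 8.75 in Parental cells. E2F1 read 8.63, 8.81 and 8.70 in Resistant cells and 8.28, 8.64 and 8.46 in Parental cells (0.26, not called). CCND1 rose by 0.51 ± 0.09 (adjusted p = 0.000232), with 16.31, 16.08 and 16.31 on Resistant arrays against 15.72, 15.67 and 15.79 on Parental arrays.

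Of the mitosis genes in SW48, AURKA lay at 12.05, 12.21 and 12.33 on the Resistant arrays, against 13.21, 13.12 and 12.98 on the Parental arrays (−0.90 ± 0.15, 1.87-fold lower, adjusted p = 7.36e-05). CCNB2, a B-type cyclin, lay at 11.07, 11.40 and 10.99 on the Resistant arrays, against 11.88, 11.72 and 11.71 on the Parental arrays (−0.62 ± 0.12, 1.53-fold, adjusted p = 0.000497). PLK1 lay at 14.23, 14.27 and 14.29 on the Resistant arrays, against 14.88, 14.86 and 14.85 on the Parental arrays (−0.60 ± 0.11, 1.51-fold, adjusted p = 0.000278). The 3 genes separate the states without overlap, and the arrays of a state agree most closely in PLK1. CENPF was at 12.19, 12.27 and 12.29 in Resistant cells, against 12.83, 12.76 and 13.06 in Parental cells (−0.63 ± 0.18, adjusted p = 0.0129, and 0.0684 without Parental replicate 3 of SW48). BIRC5 was at 11.19, 11.12 and 11.06 in Resistant cells, against 11.99, 11.52 and 11.68 in Parental cells (−0.61, adjusted p = 0.0411, lost without Parental replicate 1 or 3 or any Resistant array, up to 0.185). TOP2A, the topoisomerase that untangles chromosomes, went against the others, with 15.21, 15.08 and 15.14 on Resistant arrays against 14.67, 14.69 and 14.67 on Parental arrays (0.47 ± 0.10, 1.38-fold higher, adjusted p = 0.00162).

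Several mitosis genes of SW48 did not pass the test. CCNB1 was at 11.74, 11.14 and 11.19 in Resistant cells and at 11.89, 11.97 and 11.91 in Parental cells (−0.57, adjusted p = 0.061). MKI67 was at 14.20, 14.17 and 14.30 in Resistant cells and at 14.02, 13.72 and 14.15 in Parental cells (0.26). CDK1 was at 11.22, 11.26 and 11.14 in Resistant cells and at 11.07, 10.97 and 11.01 in Parental cells (0.19). The proliferation marker and CDK1 were thus slightly up in every Resistant array against every Parental array, a difference that did not pass. FOXM1 was at 12.62, 12.58 and 12.56 in Resistant cells and at 12.49, 12.58 and 12.69 in Parental cells. CENPA, the centromeric histone, differed by −0.40 (adjusted p = 0.0836), and the remaining 6 mitosis genes by −0.06 to 0.09.

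**Figure D3:**
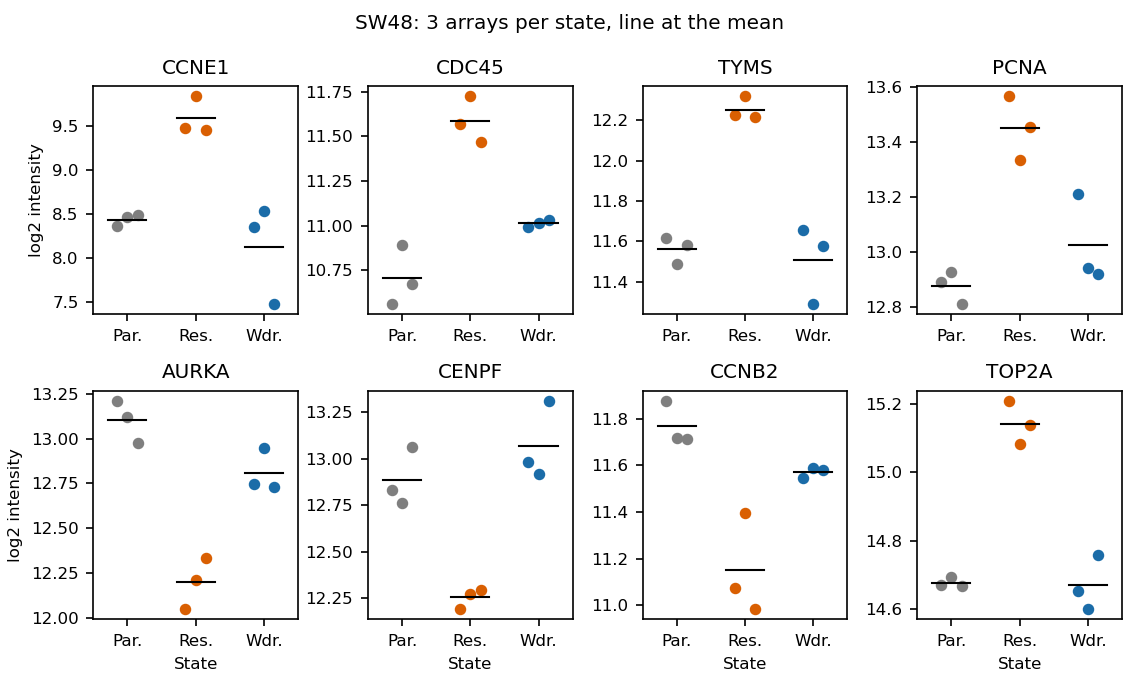
Log2 intensity (vertical axis) of CCNE1, CDC45, TYMS, PCNA, AURKA, CENPF, CCNB2 and TOP2A on each SW48 array, with the states in the order in which they were reached along the horizontal axis and a bar at the mean of 3 arrays. The Resistant arrays are the highest in CCNE1, CDC45, TYMS, PCNA and TOP2A and the lowest in AURKA, CENPF and CCNB2.

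Withdrawal and Resistant cells of SW48 differed in 12 members. In Withdrawal cells 3 replication genes rose and 4 fell, 3 mitosis genes rose and 1 fell, and CCND1 fell, where 11.1% of all genes rose and 11.1% fell. CCNE1 read 8.35, 8.53 and 7.47 on the Withdrawal arrays against the Resistant values above (−1.47 ± 0.26, 2.77-fold lower, adjusted p = 0.000196). TYMS read 11.65, 11.29 and 11.58 on the Withdrawal arrays (−0.75 ± 0.15, adjusted p = 0.000696) and CDC45 read 10.99, 11.02 and 11.03 (−0.57 ± 0.15, adjusted p = 0.00618). CDC6 rose by 0.91 ± 0.15, with 12.85, 12.85 and 13.09 on Withdrawal arrays against 12.25, 11.96 and 11.87 on Resistant arrays (adjusted p = 8.96e-05). Its Withdrawal arrays stood above its Parental arrays too, which read 12.33, 12.39 and 12.47.

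CENPF rose by 0.82 ± 0.18 in Withdrawal over Resistant cells of SW48, to 12.98, 12.92 and 13.31 (adjusted p = 0.00169), and AURKA by 0.61 ± 0.15, to 12.74, 12.95 and 12.73 (adjusted p = 0.00389). TOP2A fell by 0.47, to 14.65, 14.60 and 14.76 (adjusted p = 0.00147). Relative to Parental cells the Withdrawal means of these 3 genes differed by 0.18, −0.30 and −0.01. PCNA fell by 0.43, to 13.21, 12.94 and 12.92 (adjusted p = 0.0326). MCM6 rose by 0.75 (adjusted p = 0.0462), MCM2 by 0.47 (0.0328) and CCNB2 by 0.42 (0.0134), and CCND1 fell by 0.32, to 15.85, 15.99 and 15.92 (0.0151). These last calls were weak: without Resistant replicate 1 all of MCM2, MCM6, PCNA, CCND1 and CCNB2 were lost (0.0565 to 0.123). In that fit 7 of the 36 members were called, near the share of all genes (19.3%). MCM6 was lost without any of the 6 arrays (up to 0.181), MCM2 also without Resistant replicate 2 and Withdrawal replicates 1 and 2 (up to 0.13), PCNA without Resistant replicate 3 and Withdrawal replicates 2 and 3, CCND1 without Resistant replicate 3 and Withdrawal replicate 1, and CCNB2 without Resistant replicate 3. In the other direction, the count was 17 without LIM1215 Parental replicate 3, where 25% of all genes were called.

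Between Withdrawal and Parental cells of SW48 no member passed the limma test, where 4.08% of all genes did (1.78% rose and 2.3% fell), and 4 of 36 had an unadjusted p under 0.05. CDC6 came closest (0.53, adjusted p = 0.0504). The medians were 0.16 for replication and −0.02 for mitosis, against 0.00 for all genes. E2F1 was at 8.62, 8.52 and 8.53 on Withdrawal arrays, MCM2 at 11.28, 11.36 and 11.06, CCNE2 at 9.30, 9.28 and 9.47, MKI67 at 13.92, 13.83 and 14.07, CCNB1 at 11.46, 11.53 and 11.61, CDK1 at 11.01, 10.99 and 11.12, and FOXM1 at 12.43, 12.48 and 12.44. CCNE2 was above, and CCNB1 and FOXM1 below, all of their Parental arrays. Without LIM1215 Parental replicate 3 in the shared spread, CDC6 was called higher (0.53, adjusted p = 0.00726) and PLK1 lower (−0.32, adjusted p = 0.0143), where 6.21% of all genes were called.

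Caco2 had the fewest calls of the comparisons of Resistant with Parental cells after LIM1215. In Resistant cells of Caco2 1 replication gene rose and 2 fell, and 1 mitosis gene rose and 3 fell, 7 of 36 in all, where 12.9% of all genes rose and 14.5% fell. The members were thus called less often than all genes, of which 27.4% were called. The medians were 0.00 for replication and −0.17 for mitosis, against −0.03 for all genes. The groups did not overlap in 9 members that were higher and 11 that were lower in Resistant cells, where 18.6% and 21.3% of all genes did so.

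RRM2, the regulatory subunit of ribonucleotide reductase, lay at 14.53, 14.48 and 14.36 on the Resistant arrays, against 13.73, 13.67 and 13.64 on the Parental arrays (0.78 ± 0.14, 1.71-fold higher, adjusted p = 0.000127). FOXM1 lay at 14.50, 14.46 and 14.35 on the Resistant arrays, against 13.80, 13.86 and 13.73 on the Parental arrays (0.64 ± 0.16, 1.56-fold higher, adjusted p = 0.00345). CDK1 lay at 12.52, 12.56 and 12.45 on the Resistant arrays, against 13.14, 13.13 and 13.09 on the Parental arrays (−0.62 ± 0.13, 1.53-fold lower, adjusted p = 0.0008). FOXM1 and CDK1, a regulator and a kinase of the same phase, thus moved in opposite directions. MCM2 was at 10.38, 10.48 and 10.38 in Resistant cells, against 10.97, 10.88 and 11.12 in Parental cells (−0.58 ± 0.16, adjusted p = 0.00679). CCNB2 was at 11.74, 11.45 and 11.61 in Resistant cells, against 12.23, 12.12 and 12.07 in Parental cells (−0.54 ± 0.12, adjusted p = 0.00142). AURKB, the kinase of the chromosomal passenger complex, was at 10.48, 10.63 and 10.55 in Resistant cells, against 11.12, 10.89 and 11.05 in Parental cells (−0.46 ± 0.13, adjusted p = 0.00768). All 3 separated without overlap. CDT1 fell by 0.43, with 10.52, 10.57 and 10.25 in Resistant cells against 11.05, 10.95 and 10.61 in Parental cells (adjusted p = 0.0155), a call lost without Parental replicate 1 (0.094), Parental replicate 2 (0.0625) or Resistant replicate 3 (0.0955).

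The E cyclins, MKI67 and E2F1 did not pass in this comparison. CCNE1 was at 10.00, 9.94 and 9.79 in Caco2 Resistant cells and at 10.12, 9.99 and 10.05 in Parental cells, and CCNE2 at 8.63, 8.98 and 8.47 in Resistant cells and at 8.21, 8.39 and 8.16 in Parental cells. MKI67 was at 14.22, 14.34 and 14.26 in Resistant cells and at 14.14, 14.02 and 14.09 in Parental cells. E2F1 was at 10.21, 10.16 and 10.21 in Resistant cells and at 9.90, 9.76 and 9.48 in Parental cells. In CCNE2, MKI67 and E2F1 each Resistant array was above each Parental array, by 0.44, 0.19 and 0.48 on average, none of which passed the test. PCNA (13.45, 13.18 and 13.55 in Resistant cells, 13.25, 13.35 and 13.22 in Parental cells), CCNB1 (12.78, 12.83 and 13.04 in Resistant cells, 13.18, 13.18 and 12.97 in Parental cells), TOP2A (14.71, 14.53 and 14.41 in Resistant cells, 14.45, 14.58 and 14.57 in Parental cells) and CCND1 (13.85, 13.87 and 13.73 in Resistant cells, 13.68, 13.75 and 13.87 in Parental cells) overlapped. Without LIM1215 Parental replicate 3 in the shared spread the count was 13, where 30.6% of all genes were called. E2F1, CDC6 and CCNE2 were then added as higher and MCM3, GINS2 and TTK as lower.

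Withdrawal and Resistant cells of Caco2 differed in 6 members. In Withdrawal cells, RRM2 fell by 0.92 ± 0.14, to 13.54, 13.57 and 13.49 (1.89-fold, adjusted p = 1.79e-05), and FOXM1 by 0.49, to 13.89, 14.05 and 13.91 (adjusted p = 0.0261). AURKB rose by 0.53, to 11.15, 11.15 and 10.97 (adjusted p = 0.0028), MCM2 by 0.53, to 10.87, 11.00 and 10.96 (0.0139), CDK1 by 0.52, to 13.09, 12.90 and 13.09 (0.00424), and CCNB2 by 0.46, to 12.13, 12.10 and 11.96 (0.00576). Thus 4 members were higher and 2 lower, where 12.1% of all genes rose and 12.5% fell. This comparison shares its Resistant arrays with the one against Parental cells, whose changes were 0.78 for RRM2, 0.64 for FOXM1, −0.46 for AURKB, −0.58 for MCM2, −0.62 for CDK1 and −0.54 for CCNB2. The FOXM1 call was lost without Resistant replicate 1 or 2 or Withdrawal replicate 1 or 3 (0.0673 to 0.0827). Without LIM1215 Parental replicate 3 the count was 17, where 28.1% of all genes were called. MKI67, at 13.81, 13.65 and 13.76 in Withdrawal cells, differed by −0.53 from Resistant cells (adjusted p = 0.0678).

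Against Parental cells, Caco2 Withdrawal cells were lower in MCM7, the only member called, where 5.28% of all genes were (2.73% rose and 2.54% fell). It lay at 13.87, 13.67 and 13.80 on the Withdrawal arrays, against 14.43, 14.07 and 14.40 on the Parental arrays (−0.52 ± 0.15, 1.43-fold, adjusted p = 0.0373). The call was lost on leaving out Parental replicate 1 or 3 or any Withdrawal array (0.061 to 0.155). The medians were −0.04 for replication and −0.05 for mitosis, against −0.02 for all genes. E2F1 was at 9.49, 10.09 and 9.93 on Withdrawal arrays, PCNA at 13.28, 13.16 and 13.27, CCNE1 at 9.51, 9.84 and 9.79, CCNE2 at 8.51, 8.47 and 7.83, CCNB1 at 13.36, 13.37 and 13.24, TOP2A at 14.63, 14.53 and 14.55, and CCND1 at 13.91, 13.86 and 13.89. CCNE1 and MKI67 were below, and CCNB1 above, all of their Parental arrays in Caco2.

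**Figure D4:**
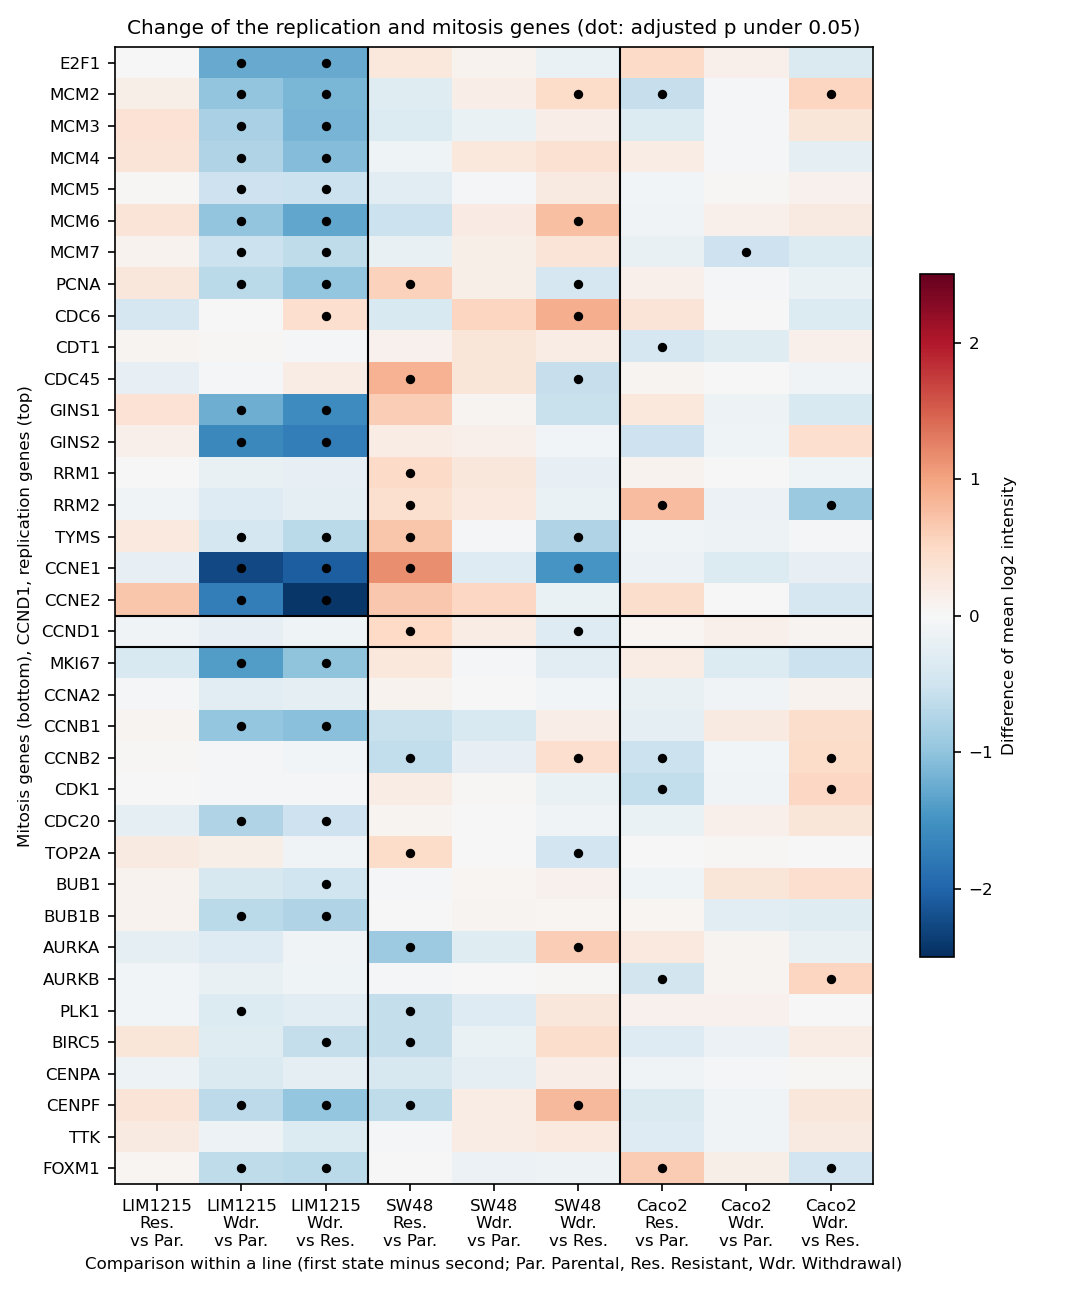
Log2 change of each of the 36 genes (vertical axis, replication genes on top, then CCND1, then mitosis genes) in the 9 comparisons within a line (horizontal axis), with colour for the change and a dot where the adjusted p was under 0.05. The columns of LIM1215 Withdrawal cells hold 20 and 22 dots, that of LIM1215 Resistant against Parental cells none, those of SW48 13, 0 and 12 and those of Caco2 7, 1 and 6.

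The lines differed in these changes when the differences were tested. The Withdrawal over Parental change was lower in LIM1215 than in SW48 for 15 members, 11 replication and 4 mitosis genes, and higher for none, where 6.73% of all genes were lower and 6.59% higher. Against Caco2 it was lower for 14 members, 9 replication and 5 mitosis genes, where 6.76% of all genes were lower and 6.61% higher. Against SW48 the largest differences were −2.26 ± 0.55 for CCNE2 (adjusted p = 0.00815), −1.93 ± 0.37 for CCNE1 (adjusted p = 0.00144) and −1.72 for GINS2. E2F1 (−1.35), GINS1 (−1.30), MCM6, MCM2, MCM4, PCNA, MCM7 and MCM3 followed among the replication genes, and MKI67 (−1.37), CENPF, BUB1B and CDC20 among the mitosis genes. Against Caco2 the largest were −1.91 for CCNE1 (adjusted p = 0.00148), −1.75 for CCNE2 (adjusted p = 0.0348) and −1.49 for GINS2. E2F1 (−1.38), GINS1 (−1.10), MCM2, MCM3, MCM4 and PCNA followed, with CCNB1 (−1.19), MKI67 (−1.05), CDC20, FOXM1 and BUB1 among the mitosis genes. Both tests use the same LIM1215 arrays. Without Parental replicate 3 of LIM1215 they called 27 and 24 members, all lower, where 21.8% and 22.4% of all genes were called. Without Parental replicate 1 or 2 they called 9 each against SW48 (9.11% and 8.75% of all genes) and 5 each against Caco2 (9.09% and 9.07% of all genes). Against Caco2, 9 members were called without Caco2 Parental replicate 3, Caco2 Withdrawal replicate 2 or LIM1215 Withdrawal replicate 1 (10.9%, 11.1% and 11% of all genes). Between SW48 and Caco2 no member passed, where 5.31% of all genes did (2.46% higher and 2.85% lower in SW48), and 4 of 36 had an unadjusted p under 0.05. That count was 1 without SW48 Parental replicate 2 (3.97% of all genes), or without Caco2 Parental replicate 2 or 3 (3.98% and 4.01%). It was 6 without LIM1215 Parental replicate 3, where 7.65% of all genes were called.

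For the Resistant over Parental change, SW48 and Caco2 differed in 11 members, 7 higher and 4 lower in SW48, where 12.9% of all genes were higher and 13% lower. CCNE1 (1.30), CDC45 (0.80), TYMS (0.77), CDT1 (0.54), CDK1 (0.81), TOP2A (0.45) and CCND1 (0.46) were higher, and AURKA (−1.15), PLK1 (−0.71), CDC6 (−0.70) and FOXM1 (−0.64) were lower. Leaving out single arrays of these groups ended the calls of CDT1, FOXM1 and TOP2A in several cases (adjusted p up to 0.0984) and that of CDC6 without SW48 Resistant replicate 3 (0.051).

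The comparison of the Resistant change between LIM1215 and SW48 called 10 members, where 9.6% of all genes were higher and 8.67% lower in LIM1215. CENPF (0.96), BIRC5 (0.90), MCM3 (0.70), AURKA (0.67), CCNB2 (0.64) and PLK1 (0.53) were higher in LIM1215, and CCNE1 (−1.35), CDC45 (−1.08), CCND1 (−0.59) and RRM1 (−0.48) were lower. The balance of 6 higher and 4 lower turned without LIM1215 Parental replicate 3, to 5 higher and 13 lower, where 11.1% of all genes were higher and 10.5% lower. BIRC5 was then not called (0.52, adjusted p = 0.0709), MCM3 was at 0.45 and AURKA at 0.40, and PCNA, GINS1, GINS2, RRM2, TYMS, CCNE2, MKI67, CDK1 and CDC20 were added, all lower. Single arrays of either line also ended the calls of BIRC5, AURKA and RRM1 in several cases (up to 0.12), that of PLK1 without LIM1215 Resistant replicate 2 and that of MCM3 without SW48 Resistant replicate 1. The count was 6 without LIM1215 Resistant replicate 2 (16.1% of all genes) or without SW48 Resistant replicate 1 (16.7% of all genes).

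LIM1215 and Caco2 differed in the Resistant change of 7 members, where 10.4% of all genes were higher and 10.8% lower in LIM1215. MCM2 (0.72), MCM3 (0.70), CDK1 (0.61), CCNB2 (0.57) and TTK (0.54) were higher in LIM1215, and RRM2 (−0.87) and CDC6 (−0.76) were lower. This balance turned as well without LIM1215 Parental replicate 3, to 4 higher and 8 lower, where 11.8% of all genes were higher and 12.2% lower. TTK was then not called (0.35, adjusted p = 0.11), MCM2 was at 0.44, MCM3 at 0.45 and CDK1 at 0.39, and E2F1, CDC45, MKI67, AURKA, PLK1 and FOXM1 were added, all lower.

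The averages of the replication and the mitosis genes differed on the arrays of some states. Each array's average was set against the mean of its line's Parental arrays. The Parental values are therefore centred by construction, and the differences between states in these averages were not tested. In SW48 Resistant cells the replication average was 0.20 to 0.24 and the mitosis average −0.23 to −0.17, so the arrays differed by 0.38 to 0.47 between the groups, against −0.02 to 0.03 on Parental arrays. SW48 Withdrawal arrays kept a difference of 0.18 to 0.26. Caco2 Resistant arrays had a smaller one, 0.13 to 0.15 against −0.04 to 0.07 on Parental arrays, and Caco2 Withdrawal arrays were on the other side at −0.09 to −0.06. In LIM1215 the Withdrawal arrays were low in both, −0.80 to −0.79 for replication and −0.46 to −0.39 for mitosis, with a difference of −0.40 to −0.34. The LIM1215 Resistant arrays had a difference of 0.05 to 0.20, and the LIM1215 Parental arrays of −0.18 to 0.09. Parental replicate 3 was the lowest Parental array, at −0.66 for replication and −0.47 for mitosis. Set against the mean of Parental replicates 1 and 2 alone, the Resistant arrays were at −0.25 to −0.16 for replication and −0.27 to −0.17 for mitosis, with a difference of −0.05 to 0.11. The Withdrawal arrays were then at −1.13 to −1.12 and −0.70 to −0.63, with a difference of −0.49 to −0.43.

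**Figure D5:**
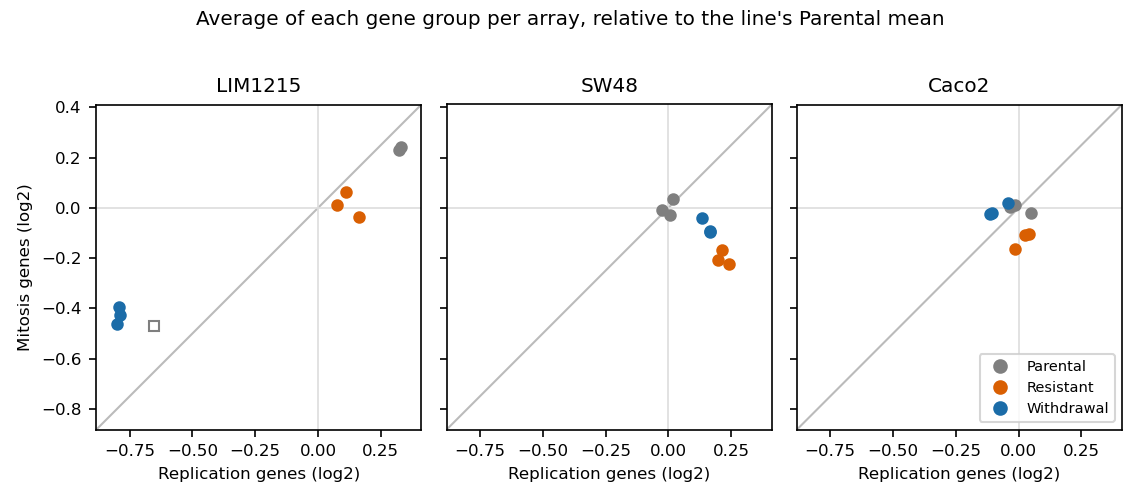
Average of the 18 replication genes (horizontal axis) against the average of the 17 mitosis genes (vertical axis) on each of the 27 arrays, in log2 units relative to the mean of the line's Parental arrays, with a diagonal where both are equal. The SW48 Resistant arrays lie right of the diagonal, by 0.38 to 0.47, the LIM1215 Withdrawal arrays lie left of it, by 0.34 to 0.40, and LIM1215 Parental replicate 3 lies at −0.66 and −0.47.

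In LIM1215 other genes of replication fell as well. Of 51 further replication genes, 34 fell (66.7%) and none rose in Withdrawal against Resistant cells, where 14.4% of all genes fell, and 23 fell (45.1%) and 2 rose against Parental cells, where 11.2% fell. Without Parental replicate 3, 37 fell in each of these comparisons, with none and 2 higher, where 16.1% and 15.1% of all genes fell. The replicative polymerase subunit POLE2 was at least 2.92-fold lower than in Resistant cells and at least 3.24-fold lower than in Parental cells, since its Withdrawal mean was near background. CLSPN, which links the fork to the checkpoint, fell by 1.66, UHRF1, which maintains DNA methylation at the fork, by 1.54 and SLBP, which binds histone mRNA, by 1.33 against Resistant cells. Of 73 further mitosis genes, 26 fell (35.6%) and 6 rose against Resistant cells, and 19 fell (26%) and 8 rose against Parental cells. Without Parental replicate 3, 30 fell and 6 rose against Resistant cells, and 37 fell and 4 rose against Parental cells. The kinetochore genes CENPI (−1.11) and SPC25 (−0.97) fell against Resistant cells, while the kinetochore gene NDC80 (0.69) and the CDK-activating phosphatase CDC25B (0.75) rose.

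In SW48 Resistant over Parental cells, 7 of the 51 further replication genes rose (13.7%) and 4 fell (7.84%), which is near the 10.9% and 11.8% of all genes. Of the 73 further mitosis genes, 5 rose (6.85%) and 13 fell (17.8%). In the fit that leaves out LIM1215 Parental replicate 3, 12 and 8 rose and 9 and 20 fell, where 12.5% of all genes rose and 13.2% fell. The DNA ligase LIG1 rose by 1.60 and RPA3, a subunit of the single-strand binding protein, by 1.75, whereas RPA2 of the same complex fell by 1.12 and the origin recognition genes ORC5 and ORC4 by 1.14 and 0.83. Among the mitosis genes NDC80 fell by 1.09, CDC25B by 1.27 and the centrosome kinase NEK2 by 1.03, and SPC24, a partner of NDC80, rose by 0.82. In Caco2 Resistant over Parental cells none of the 51 rose and 8 fell (15.7%), near the 14.5% of all genes that fell. RPA2 (−1.05) and the primase subunit PRIM1 (−0.72) were among them. Of the 73, 4 rose (5.48%) and 8 fell (11%), below the shares of all genes, and the chromosome motor KIF4A changed most (−1.46). In the fit that leaves out LIM1215 Parental replicate 3, 2 and 7 rose and 12 fell in each list, where 14.3% of all genes rose and 16.3% fell. After withdrawal KIF4A and CENPI rose over Resistant Caco2 cells by 2.08 and 1.90. Split pairs such as RPA3 and RPA2, or SPC24 and NDC80, had subunits of a complex that were called in opposite directions.

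Genes that hold or release the G1 brake were read alongside, 35 of them. In LIM1215 Withdrawal against Resistant cells 12 fell (34.3%) and 2 rose (5.71%), where 14.4% of all genes fell and 13.6% rose. The cyclin CCND3 fell by 1.47, SKP2, which marks the CDK inhibitor p27 for destruction, by 1.26, CDK2 by 0.86 and E2F3 by 1.20, while CDKN1A and CDKN1B, which encode the inhibitors p21 and p27, rose by 1.27 and 0.51. Against Parental cells 7 fell (20%) and 3 rose (8.57%), where 11.2% and 9.89% of all genes did, and without Parental replicate 3 these counts were 10 and 6. CCND3 fell by 1.64, SKP2 by 1.30 and CDK2 by 0.89, and CDKN1B rose by 0.72. CDKN1A was lower in LIM1215 Resistant than Parental cells (−0.80, adjusted p = 0.0102), a call lost without Parental replicate 3 (−0.55, adjusted p = 0.0653), and higher in SW48 (0.92, adjusted p = 0.00166). In Caco2 it was at least 2.53-fold higher in Resistant than in Parental cells, whose mean was near background, and at least 2.15-fold lower in Withdrawal than in Resistant cells. CDK6 rose in LIM1215 Resistant cells (1.10, and 0.88 without that array) and fell in SW48 Resistant cells (−1.25), and CCND2 fell in both SW48 (−0.86) and Caco2 (−1.92). The lymphocyte markers were high on the same Resistant arrays, and their part in these changes was not tested.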

How the data were processed

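Each probe set has a single deposited value per array, read as log2 intensities (per the labels' protocols from biotin-labelled cDNA). The base was inferred from the range, and neither software nor normalization is given in the sources used here. The values were used as deposited. Of 21448 transcript probe sets, 17709 had 1 gene symbol in the platform annotation, and the brightest was used for 20 genes with several, which left 17687 genes and no filter on dim ones. A level was near background under the 95th percentile of 612 negative controls, and a fold against such a group is a lower bound over it.

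All 27 arrays entered 1 limma model (version 3.58.1, lmFit and eBayes) with a mean for each group, which left 18 residual degrees of freedom beside a prior of 4.12. R 4.3.3 was used with version 1.17.8 of the data.table package. The two-sided p-values were adjusted by the Benjamini-Hochberg method across the genes of each of 9 comparisons within lines and 6 differences between lines. The errors are standard errors from this model, which pools the spread of a gene over all groups. Arrays give no counts, so their number limits the precision. On simulated arrays for LIM1215 Withdrawal against Parental cells over all 17687 genes, with 100 genes changed at each size, the fit called 14% of changes of 0.5 and 59% of changes of 1, and 8 unchanged genes, so a member that was not called may still have changed. The simulation gave a gene the same spread in all groups and changed far fewer genes than the 3724 called in the data. Its rates therefore do not give the recovery for the members. Motifs were searched in RefSeq promoters (GRCh38.p14), 1 per gene, and figures drawn with Python 3.11.15, pandas 2.3.3 and matplotlib 3.10.9.

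The members and the gene lists were chosen with earlier results of these data known. Array values are given for 11 fixed members (MKI67, E2F1, MCM2, PCNA, CCND1, CCNE1, CCNE2, CDK1, CCNB1, TOP2A and FOXM1) and in each comparison for up to 8 called members with the largest change and no overlap. Other members and marker genes were chosen for naming after their values were seen. From the wider lists up to 4 called genes per direction are named. Alternatives were another normalization or centring, a filter on dim genes, the arrays of a line alone, an intensity trend, all probe sets, a least change of 0.5, the replicate number as a block and leaving out each array.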

Additional observations from a re-analysis of the deposited data

Results flagged for a closer look

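The change between states differed between lines by a test of the difference itself (limma, adjusted p under 0.05 over all genes) for the following members. The values are differences of log2 changes.

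For Withdrawal over Parental cells, the LIM1215 change differed from the SW48 change in 15 members, most in CCNE2 (−2.26), CCNE1 (−1.93) and GINS2 (−1.72). It differed from the Caco2 change in 14 members, most in CCNE1 (−1.91), CCNE2 (−1.75) and GINS2 (−1.49). All of these were lower in LIM1215. Of all genes, 13.3% differed in the test against SW48 and 13.4% in the test against Caco2.

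For Resistant over Parental cells, the LIM1215 change differed from the SW48 change in 10 members, most in CCNE1 (−1.35), CDC45 (−1.08) and CENPF (0.96). It differed from the Caco2 change in 7 members, most in RRM2 (−0.87), CDC6 (−0.76) and MCM2 (0.72). The SW48 change differed from the Caco2 change in 11 members, most in CCNE1 (1.30), AURKA (−1.15) and CDK1 (0.81). Of all genes, 18.3%, 21.3% and 25.9% differed in these tests, in the same order. The counts of 7 and 11 among the 36 members are near their shares. Without LIM1215 Parental replicate 3 the LIM1215 change was higher in 5 and lower in 13 members relative to SW48 (6 and 4 with it), and higher in 4 and lower in 8 relative to Caco2 (5 and 2 with it). In that fit 11.1% of all genes were higher and 10.5% lower relative to SW48, and 11.8% and 12.2% relative to Caco2. Tests that name the same line share its arrays.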

How the results depend on the processing

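Of 138 called changes of single members, none reversed, and 81 passed under all 8 other settings and 88 under every left-out array. Counts of called members moved as follows, with the reported count in brackets, and the cause was not tested. With the arrays of the lines alone, which are fewer, they were 9 in LIM1215 Withdrawal against Parental cells (20), 0 in Caco2 (1), 5 for Resistant LIM1215 minus SW48 (10), and for Withdrawal 9 for LIM1215 minus SW48 (15), 7 for LIM1215 minus Caco2 (14) and 1 for SW48 minus Caco2 (0). Median centring gave 1 in SW48 Withdrawal against Parental cells (0), 9 for Withdrawal LIM1215 minus Caco2 (14) and 1 for SW48 minus Caco2 (0). Without dim genes the first and last of these were 1 and 2, with an intensity trend 2 and 3, and the trend gave 1 in LIM1215 Resistant against Parental cells (0). In SW48 Withdrawal against Parental cells, centring called 692 of all 17687 genes, the filter 982 of 10499 and the trend 939 of 17687. The trend called 2091 of 17687 in LIM1215 Resistant against Parental cells. The arrays of the lines alone called 2227 and 705 of 17687 in LIM1215 and Caco2 Withdrawal against Parental cells. Quantile normalization gave 0 in Caco2 Withdrawal against Parental cells (1), where it called 857 of all 17687 genes. A least change of 0.5 gave 7 in SW48 Withdrawal against Resistant cells (12), where 3245 of all 17687 genes passed.

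With the replicate block the count was 0 in Caco2 Withdrawal against Parental cells (1) and 1 for Withdrawal SW48 minus Caco2 (0), and no other count moved past 1.5 times. In the first of these the block called 806 of all 17687 genes. In their deviations from the group means, 0 of 27 same-numbered pairs correlated above 0.1 (−0.0408 to 0.0749). A pairing that touches only some genes cannot be seen in this, and the labels do not say how the replicates were made.

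Leaving out arrays singly gave these ranges of counts. For Resistant against Parental cells they were 0 to 8 in LIM1215, 10 to 21 in SW48 and 6 to 13 in Caco2. The same fits called 8.54% to 14.7%, 19% to 25.7% and 23.8% to 30.6% of all genes. For Withdrawal against Parental cells the counts were 13 to 30, 0 to 2 and 0 to 1, in the same order of lines. Of all genes, 12.8% to 28.4%, 2.53% to 6.21% and 3.57% to 6.89% were called. For Withdrawal against Resistant cells the counts were 18 to 25, 7 to 17 and 5 to 17, in that order. Of all genes, 23.5% to 31.2%, 18.6% to 25% and 21% to 28.1% were called. For the differences of the Resistant change the counts were 6 to 18 for LIM1215 minus SW48, 6 to 12 for LIM1215 minus Caco2 and 8 to 16 for SW48 minus Caco2. Of all genes, 16.1% to 21.6%, 19% to 24.1% and 23.4% to 29.3% were called. For the differences of the Withdrawal change the counts were 9 to 27, 5 to 24 and 0 to 6, in that order. Of all genes, 8.75% to 21.8%, 9.07% to 22.4% and 3.91% to 7.65% were called. LIM1215 Parental replicate 3 gave the upper ends named in the report; leaving it out of comparisons that do not use it was chosen after seeing the data. Without it the LIM1215 medians for replication and mitosis were −0.14 and −0.24 (0.11 and 0.03) for Resistant and −0.94 and −0.59 (−0.72 and −0.33) for Withdrawal against Parental cells. Of the 18 medians, 6 changed sign under some setting: these LIM1215 Resistant medians, and 4 medians of SW48 and Caco2 that were no larger than 0.055 in size. With 3 arrays per group, small changes may have been missed.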

Other observations

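Genes of the S phase checkpoint and of DNA repair were measured beside the members, 19 of them. In LIM1215 Withdrawal cells 3 fell (15.8%) and none rose, both against Resistant cells, where 14.4% of all genes fell, and against Parental cells, where 11.2% fell, so these shares are near those of all genes. The comparisons share the Withdrawal arrays. MSH6, a mismatch repair gene, fell by 1.07 against Resistant and by 1.15 against Parental cells. PALB2, which recruits recombination proteins, fell by 0.69 and 0.59, and the level of ATR, the other gene called, was near background in all 3 states. Without LIM1215 Parental replicate 3, 4 fell against Resistant cells (21.1%, where 16.1% of all genes did) and 9 against Parental cells (47.4%, where 15.1% did). In LIM1215 Resistant against Parental cells only ATM was called, 0.64 higher, and without that array 1 rose and 2 fell.

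In SW48 Resistant against Parental cells 4 rose (21.1%) and 2 fell (10.5%), where 10.9% of all genes rose and 11.8% fell. RAD54L, a recombination gene, rose by 1.41, FANCI of the Fanconi pathway by 0.86, RAD18 by 0.69 and the checkpoint kinase gene CHEK2 by 0.53, while ATM and XRCC3 fell by 0.71 each. In SW48 Withdrawal against Parental cells RAD54L (1.24), FANCI (0.57) and CHEK1 (0.42) were higher (15.8%, where 1.78% of all genes were) and none was lower. Against Resistant cells of SW48, 2 rose, XRCC3 (1.04) and BRCA1 (0.72), and 2 fell, 10.5% each, where 11.1% of all genes rose and 11.1% fell.

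In Caco2 Resistant against Parental cells none rose and 4 fell (21.1%, where 14.5% of all genes did): XRCC2 by 0.94, CHEK1 by 0.58, ATM by 0.56 and EXO1 by 0.50. Against Resistant cells, Caco2 Withdrawal cells had 4 genes higher (21.1%, where 12.1% of all genes were), XRCC2 (0.59), CHEK1 (0.52), EXO1 (0.51) and ATM (0.45), and the 2 comparisons share the Resistant arrays. None passed between Withdrawal and Parental cells of Caco2.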
